A study of Mus musculus with 22 samples.

Results

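The nuclear genes that encode the complexes of oxidative phosphorylation were followed in laser-injured mouse eyes. They were taken by name from the protein-coding genes outside the mitochondrial chromosome: symbols that begin with Nduf and a, b, c, s or v, with Cox, a digit from 4 to 8 and a letter, with Uqcr or with Atp5, and the genes Sdha, Sdhb, Sdhc and Sdhd. This gave 94 of the 54532 genes in each of the 2 deposited count tables, under 93 symbols, since Atp5o is listed under 2 gene IDs. By role they are 7 core and 29 accessory subunits of complex I, 8 complex I assembly factors, 4 subunits of complex II, 8 of complex III, 10 of complex IV with 7 tissue or condition isoforms, and 17 subunits of complex V. The remaining 4 are Ndufa4 and Ndufa4l2, the supercomplex factor Cox7a2l, and Atp5s, which is called factor B and is no subunit. Of the 94, 91 passed the filter on low counts in each table and were tested. Cox8c was at 0 in every library, and so was Atp5o under the ID ENSMUSG00000116933. Cox7b2 was at 0 to 0.368 CPM (the usual unit of counts relative to library size, here also scaled for library composition) over the wild-type libraries and was at 0 in the knockout libraries.

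The libraries hold total RNA of the retina-choroid complex. A laser burn ruptures the membrane under the retina and lets choroidal vessels grow inwards, which models the choroidal neovascularization (CNV) of age-related macular degeneration. The wild-type set has 4 control libraries without laser and 4 libraries each at 3, 7 and 14 days after it. The knockout set has 3 libraries of Rag2-/-γc-/- mice (Rag2 gc KO below), which lack Rag2 and the common cytokine receptor gamma chain, and 3 of Rag2-/- mice (Rag2 KO), which lack Rag2. Every knockout library was taken 3 days after the laser, so both knockout groups share the loss of Rag2 and the injury, and no uninjured knockout eye is among them. Mice without Rag2 have no mature T or B cells, and those without the gamma chain also lack natural killer cells and the other innate lymphoid cells. The protocol shared by all samples names adult C57BL/6J mice. The labels give neither exact age and sex nor whether a library is 1 animal or a pool, so p-values measure the spread between libraries. Control replicate 4 is titled as without CNV, while its treatment tag names laser-induced CNV; it was kept among the controls.

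Complex I takes electrons from NADH and complex II from succinate, complex III passes them through cytochrome c to complex IV, which reduces oxygen, and complex V makes ATP from the proton gradient that complexes I, III and IV build. Complex II is built from nuclear genes alone, while each of the other complexes also holds subunits made from mitochondrial DNA. Rod and cone photoreceptors pack their inner segments with mitochondria to pay for ion pumping, and the retina is among the tissues that use the most oxygen. Many nuclear genes of these complexes share promoter sites for nuclear respiratory factor 1 (NRF1), YY1 and ETS-family factors such as GABP.

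Promoter windows of 300 bases, from 250 before the start to 50 after it, were found for 74 of the 93 symbols in RefSeq's table of the GRCm38.p6 assembly, 79 windows in all because some symbols have more than 1. The letters GCGCATGCG of the NRF1 site, searched on both strands, were in 10 of the 79 windows (12.7%) and in 575 of 32851 windows of all genes (1.75%). The letters GATGGCGGC of the YY1 site, on both strands, were in 7 (8.86%) and in 337 of all (1.03%), and the ETS letters CCGGAAG in 18 (22.8%) and in 2910 of all (8.86%). These searches are descriptions without a test, and a match is no evidence of binding. Of the 13 genes called higher at day 7, 10 had a window, of which 7 held at least 1 of the 3 strings and Ndufa3, Atp5j2 and Atp5o held none. Of the 63 symbols with a window among genes not called at day 7, 22 held one. Ndufaf4, with negative values at every time, holds the NRF1 letters. Of the 2 genes called higher at day 3, Ndufa11 held a string and Ndufa3 none. The first 3 windows printed belong to subunits called higher at day 7 and carry a match in capitals. The fourth belongs to Sdha and holds none of the 3 strings. Sdha was called lower at day 3, and no gene of the set was called lower at day 7. These 4 were chosen to show a match beside its absence and do not stand for all called genes. They are Ndufa11 (chr17:56717512-56717811, plus strand, NRF1 letters from base -60 relative to the start, where matches on both strands overlap), Atp5g2 (chr15:102670998-102671297, minus strand, NRF1 letters from base -42, again on both strands), Ndufs4 (chr13:114388045-114388344, minus strand, YY1 letters from base 38 after the start) and Sdha (chr13:74350191-74350490, minus strand), each written 5′ to 3′ along the gene.
Ndufa11: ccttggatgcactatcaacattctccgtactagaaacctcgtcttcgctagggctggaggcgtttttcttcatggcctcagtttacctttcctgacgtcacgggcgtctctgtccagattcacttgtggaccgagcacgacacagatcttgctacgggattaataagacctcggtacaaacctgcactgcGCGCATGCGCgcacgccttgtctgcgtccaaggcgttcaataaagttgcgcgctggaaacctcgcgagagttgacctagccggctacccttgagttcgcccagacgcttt
Atp5g2: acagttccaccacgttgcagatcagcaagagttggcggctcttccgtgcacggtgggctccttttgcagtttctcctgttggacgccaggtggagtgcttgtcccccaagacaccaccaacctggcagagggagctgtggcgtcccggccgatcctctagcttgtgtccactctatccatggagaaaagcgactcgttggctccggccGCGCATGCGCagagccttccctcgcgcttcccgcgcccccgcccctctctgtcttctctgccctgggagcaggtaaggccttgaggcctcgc
Ndufs4: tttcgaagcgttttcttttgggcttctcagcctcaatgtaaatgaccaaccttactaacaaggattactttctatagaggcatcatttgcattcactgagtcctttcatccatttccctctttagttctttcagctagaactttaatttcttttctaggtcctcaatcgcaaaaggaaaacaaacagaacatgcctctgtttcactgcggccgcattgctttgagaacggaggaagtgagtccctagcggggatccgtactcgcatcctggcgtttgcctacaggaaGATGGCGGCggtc
Sdha: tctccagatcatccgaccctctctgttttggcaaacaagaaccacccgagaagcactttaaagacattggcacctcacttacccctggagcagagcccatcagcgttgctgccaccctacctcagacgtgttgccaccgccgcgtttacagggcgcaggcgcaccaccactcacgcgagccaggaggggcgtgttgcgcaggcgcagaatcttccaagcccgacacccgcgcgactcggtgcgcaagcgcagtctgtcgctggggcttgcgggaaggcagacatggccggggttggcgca

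The depth was 15033983 to 16848254 counts per wild-type library and 27227847 to 30315086 per knockout library. Summed rod photoreceptor markers were 61090.3 to 69104 CPM in control, 30306 to 47816 at day 3, 36906 to 66759.9 at day 7 and 16283 to 60159 at day 14, so the labelled tissue was there in each library. Lens crystallins and other lens markers, from outside that tissue, summed to 199 to 14200.3, 30062 to 57231, 10.1 to 39126 and 736 to 154954 CPM in the same order, with the highest sum in day 14 replicate 1. Cornea and conjunctiva markers summed to 2630.1 to 8332 CPM in control and 5040.1 to 35574 CPM after the laser, against 12.2 to 21.0 CPM in the knockout libraries. No marker of any list was at 0 in every library of a table. In a bulk sample, fewer cells of a type and less RNA per cell cannot be told apart. The gamma chain gene Il2rg was at 0 in the 3 Rag2 gc KO libraries and at 1.22, 2.08 and 0.927 CPM in the 3 Rag2 KO libraries. Rag2 itself was at 0 in 5 of these 6 libraries and at 0.036 CPM in Rag2 gc KO replicate 2, so it does not check the labels.

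Transcripts of these genes were abundant in the uninjured retina-choroid complex. Per kilobase of gene length, the 91 tested genes had a median level of 38.7 CPM in control, against 4.40 over all 18657 tested genes. By complex the control median was 73.8 CPM per kilobase in complex IV, 68.8 in complex III, 48.8 in complex V, 37.2 in complex I and 35.1 in complex II. Assembly factors of complex I were far below the subunits they build, at a median of 8.21 CPM per kilobase, and the complex IV isoforms stood at 10.8. In Rag2 KO the medians were 84.4, 78.3, 59.5, 49.0 and 41.3 CPM per kilobase for complexes IV, III, V, II and I, the same order but for the last 2.

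The most abundant transcript per length in control was Cox8a, a small membrane subunit of complex IV, at 374 ± 10.7 CPM per kilobase (SD, n = 4). The catalytic beta subunit of ATP synthase, Atp5b, came next at 248 ± 12.1, with Cox6a1, the general form of subunit VIa of complex IV, at 225 ± 19.5, so that the SD intervals of both overlap. Atp5a1, the alpha subunit beside Atp5b in the F1 head, was at 194 ± 8.71 and Cox4i1, the largest nuclear subunit of complex IV, at 166 ± 11.4. In complex I the accessory subunits Ndufb11 and Ndufa2 led with 123 ± 7.19 and 102 ± 11.7 CPM per kilobase, in complex III the small subunits Uqcr10 and Uqcr11 with 120.4 ± 7.88 and 87.8 ± 8.42. In complex II the flavoprotein Sdha led with 81.8 ± 4.14, ahead of the membrane anchor Sdhd with 42.6 ± 1.69. Of the assembly factors, Ndufaf8 and Ndufaf3 were highest, with 18.1 ± 1.97 and 15.01 ± 1.98 CPM per kilobase, values that overlap.

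Summed over subunits, complexes I, III and IV were higher after the laser, complex V little higher and complex II not. Complex IV summed to 1275, 1131, 1173 and 1245 CPM in the 4 controls, 1462, 1336, 1633 and 1459 at day 3, 1586, 1754, 1609 and 1239 at day 7 and 1647, 1265, 1887 and 1333 at day 14. All 4 day 3 libraries lay above every control, and 3 of 4 did so at day 7 and at day 14. The ratio of the means over control was 1.22, 1.28 and 1.27 at days 3, 7 and 14 for complex IV, 1.20, 1.26 and 1.19 for complex III, 1.14, 1.21 and 1.18 for complex I and 1.05, 1.08 and 1.09 for complex V. For complex II it was 0.935, 0.969 and 0.989, a sum in which Sdha holds most of the counts. The sum of complex V is likewise weighted to Atp5b and Atp5a1, its 2 genes with the most counts. They were at 979.8 to 1101 and 573.4 to 636.5 CPM in control and had negative log2 fold changes at each time. The sum thus does not show the change of the other complex V subunits. Among libraries of 1 group, the sums of complexes I, III, IV and V moved together: day 7 replicate 2 was highest and day 7 replicate 4 lowest of day 7 in each of them, and day 14 replicate 3 was highest of day 14. Day 7 replicate 4 lay within the controls or below them in every complex. These sums are descriptions, with no test.

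**Figure D1:**
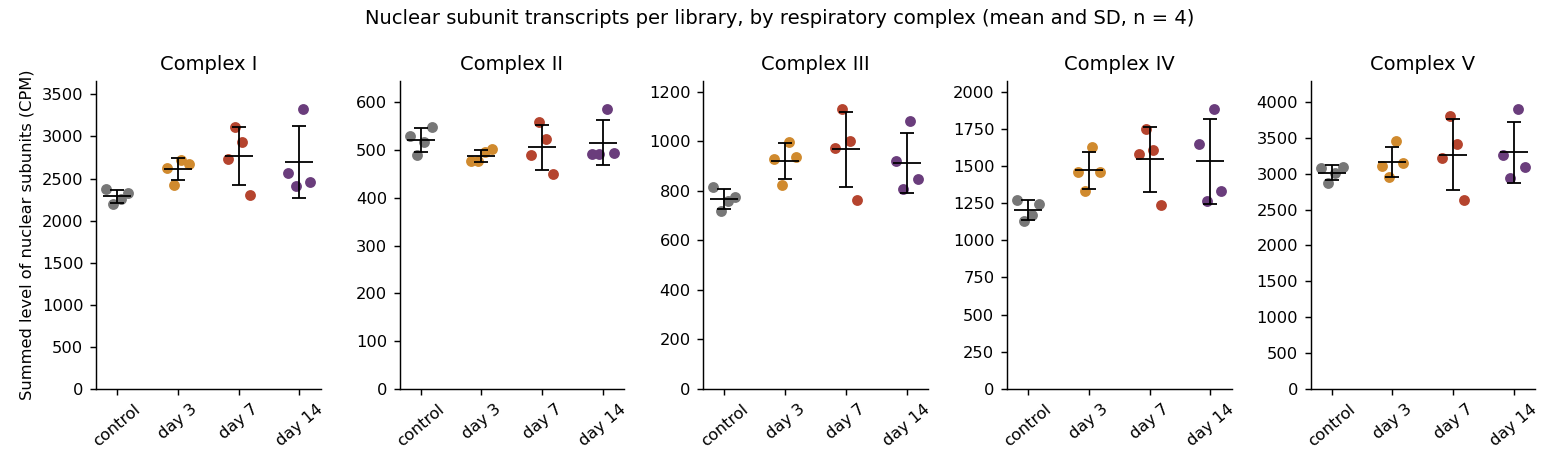
Summed level of nuclear subunits in CPM (vertical axes, from 0) for each respiratory complex in control, day 3, day 7 and day 14 libraries, 1 point per library, with black bars for mean and SD (n = 4). In complex IV the day 3 libraries sit between 1336 and 1633 CPM, above the control range of 1131 to 1275, and in complex II the groups overlap.

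At day 3, the complex I accessory subunits Ndufa3 and Ndufa11 rose and Sdha fell. Ndufa3 (ENSMUSG00000035674, chr7:3617373-3620327, plus strand on mm10) was at 57.5, 55.4, 53.8 and 64.0 CPM at day 3, against 41.3, 36.8, 36.7 and 39.7 CPM in control. Every day 3 library was above every control. Its log2 fold change was 0.58 ± 0.12 (± SE; edgeR adjusted p = 0.0154). Ndufa11 (ENSMUSG00000002379, chr17:56717767-56722141, plus strand), an accessory subunit in the membrane arm of complex I, was at 50.2, 48.7, 52.9 and 47.7 CPM at day 3, against 33.6, 29.9, 34.2 and 34.7 CPM in control. Here too the groups did not overlap, and the log2 fold change was 0.59 ± 0.18 (± SE; edgeR adjusted p = 0.0404). Sdha (ENSMUSG00000021577, chr13:74322254-74350280, minus strand), the subunit of complex II that oxidizes succinate and is shared with the citric acid cycle, was at 264, 276, 259 and 271 CPM at day 3, against 335, 318, 336 and 360.0 CPM in control. All day 3 libraries were below all controls, and the log2 fold change was -0.34 ± 0.10 (± SE; edgeR adjusted p = 0.0402).

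Over all 18657 tested genes edgeR called 6.97% higher and 7.77% lower at day 3, so the 2 of 91 and 1 of 91 are below the background share. The direction was nevertheless widely shared: 81 of the 91 log2 fold changes were positive, beside 50.7% of all tested genes, and their median was 0.27, beside 0.009 over all tested genes. At an unadjusted p under 0.05, 36 were higher and 1 lower (19.5% and 17.8% of all tested genes). The groups did not overlap for 40 genes higher and 4 lower (17.4% and 22.8%); the lower ones were Sdha, the core subunit Ndufs1, the accessory subunit Ndufb2 and the assembly factor Ndufaf4, the last 3 chosen after their values were seen. With day 3 and control alone in the fit, edgeR called 47 higher and 3 lower, where it called 18.7% and 20.2% of all genes. In the 8 runs that left out 1 library, the Ndufa3 call remained in 8, while the calls of Ndufa11 and Sdha were lost in each of the 8 (0 lower) although their log2 fold changes stayed at 0.55 to 0.63 and -0.36 to -0.30. Over all tested genes the runs without 1 library called 164 to 1259 higher and 134 to 1154 lower, beside 1300 and 1449 in the main fit. When scores of lens and cornea content entered the model all 3 were lost and Ndufaf3 was the 1 gene called. That model called 216 of all 18657 genes higher and 449 lower.

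At day 7, 13 subunits rose: 6 of complex I, 1 of complex III, 1 of complex IV and 5 of complex V. Over all tested genes edgeR called 3.62% higher and 6.9% lower. Ndufa7, a complex I accessory subunit (ENSMUSG00000041881, chr17:33824591-33838316, plus strand), was at 82.6, 95.7, 92.0 and 74.6 CPM at day 7, against 58.5, 56.9, 61.6 and 60.1 CPM in control. The groups stood apart, and the log2 fold change was 0.54 ± 0.12 (± SE; edgeR adjusted p = 0.0171). Ndufa11 was at 62.7, 67.0, 51.0 and 40.1 CPM, with a log2 fold change over control of 0.74 ± 0.18 (adjusted p = 0.0234). Ndufs8, a core subunit that carries iron-sulfur clusters of the electron path, was at 75.2, 95.5, 79.8 and 59.2 CPM at day 7, against 59.6, 50.4, 53.2 and 51.5 CPM in control. Day 7 replicate 4 was just below the highest control, and the log2 fold change was 0.53 ± 0.14 (adjusted p = 0.0328). Uqcrq, a small subunit of complex III, was at 132, 156, 156 and 104 CPM at day 7, against 106, 83.5, 87.2 and 97.1 CPM in control. Again replicate 4 alone reached into the control range, with a log2 fold change of 0.55 ± 0.16 (adjusted p = 0.0431).

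Cox6c, a small subunit of complex IV, was at 176, 204, 206 and 152 CPM at day 7, against 154, 135, 135 and 128 CPM in control. Day 7 replicate 4 again lay under the highest control, and the log2 fold change was 0.42 ± 0.12 (± SE; edgeR adjusted p = 0.0464). In complex V, 3 of the called genes belong to the membrane part Fo. Atp5g2, which encodes the c subunit of the rotating ring (ENSMUSG00000062683, chr15:102662864-102672352, minus strand), was at 119, 155, 122 and 89.4 CPM at day 7, against 88.2, 80.3, 78.7 and 79.8 CPM in control. Its log2 fold change was 0.57 ± 0.15 (adjusted p = 0.0293), and the groups did not overlap. Atp5j2, subunit f of Fo, was at 123, 142, 128 and 101 CPM, against 98.1, 86.8, 87.5 and 85.2 CPM in control (log2 fold change 0.47 ± 0.12, adjusted p = 0.0337). Atp5l, subunit g of Fo, was at 86.7, 96.2, 92.1 and 74.7 CPM, against 68.0, 57.8, 65.6 and 61.0 CPM in control (log2 fold change 0.47 ± 0.13, adjusted p = 0.0362). Both stood above the control range in all 4 libraries. The other called genes were Ndufa3, Ndufb9 and Ndufs4 of complex I, Atp5e of the F1 part, and Atp5o, the subunit OSCP that joins F1 to the peripheral stalk, with log2 fold changes of 0.43, 0.60, 0.52, 0.65 and 0.53; Ndufb9, Ndufs4, Atp5e and Atp5o were chosen after their values were seen.

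No gene of the group was called lower at day 7 by edgeR, and 1, Sdha, at an unadjusted p under 0.05. DESeq2 also called Sdha lower and limma voom none. Positive log2 fold changes were seen for 84 of 91 genes (52.2% of all tested genes) with a median of 0.34, beside 0.028 over all tested genes. At an unadjusted p under 0.05, 50 were higher (15.4% of all tested genes), and the groups did not overlap for 23 genes higher and 1 lower (11.3% and 18.4%). The number of called genes moved with single libraries: it was 2, 0, 0 and 1 without control replicates 1, 2, 3 and 4, and 1, 0, 4 and 34 without day 7 replicates 1, 2, 3 and 4. Over all tested genes the number called higher moved too. It was 675 in the main fit, 166, 77, 34 and 147 without each control, and 74, 66, 569 and 1194 without each day 7 library. A model of day 7 and control alone called 37 higher and 0 lower (10.6% and 13.2% of all genes), and one with scores of lens and cornea content 7 higher (486 of 18657 genes).

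At day 14, edgeR called none of the 91 genes in either direction, where it called 0.0322% of all tested genes higher and 0.241% lower. At an unadjusted p under 0.05, 46 were higher and 1, Sdha, was lower (12.9% and 11.8% of all tested genes), 82 of 91 log2 fold changes were positive (53.6%), and the median was 0.31, beside 0.039 over all tested genes. The groups did not overlap for 25 genes higher and 1 lower (6.76% and 12.8%). Ndufa11 was at 53.8, 37.9, 70.7 and 44.8 CPM at day 14, against 33.6, 29.9, 34.2 and 34.7 CPM in control (log2 fold change 0.65 ± 0.18, edgeR adjusted p = 0.0781). All 4 day 14 libraries were above the controls, and their spread was far wider than that of day 3. DESeq2 called 11 higher and none lower, where it called 827 and 951 of 18657 genes, and limma voom called none. Without day 14 replicate 2 edgeR called 1 gene, Atp5e, and without replicate 4 it called Atp5e and Ndufc1, genes chosen after their values were seen. Over all tested genes those runs called 49 and 130 higher. The 3 comparisons share their 4 control libraries, so their like directions are not independent of each other.

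Between the injured groups no gene of the set was called. For day 7 against day 3 edgeR called none of the 91 (0.0% of 18657 genes in either direction), 0 had an unadjusted p under 0.05 (3.06% higher and 3.07% lower over all genes), DESeq2 and limma voom called none, and the median log2 fold change was 0.066, beside -0.013 over all tested genes. For day 14 against day 3 the same counts were 0, with 0.0% of all genes called higher and 0.00536% lower and with 3.33% and 3.44% at an unadjusted p under 0.05, and the median was 0.056, beside 0.025. Without day 14 replicate 1 edgeR called 1 gene in that comparison, Ndufb2, higher, where it called 602 of all tested genes higher.

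**Figure D2:**
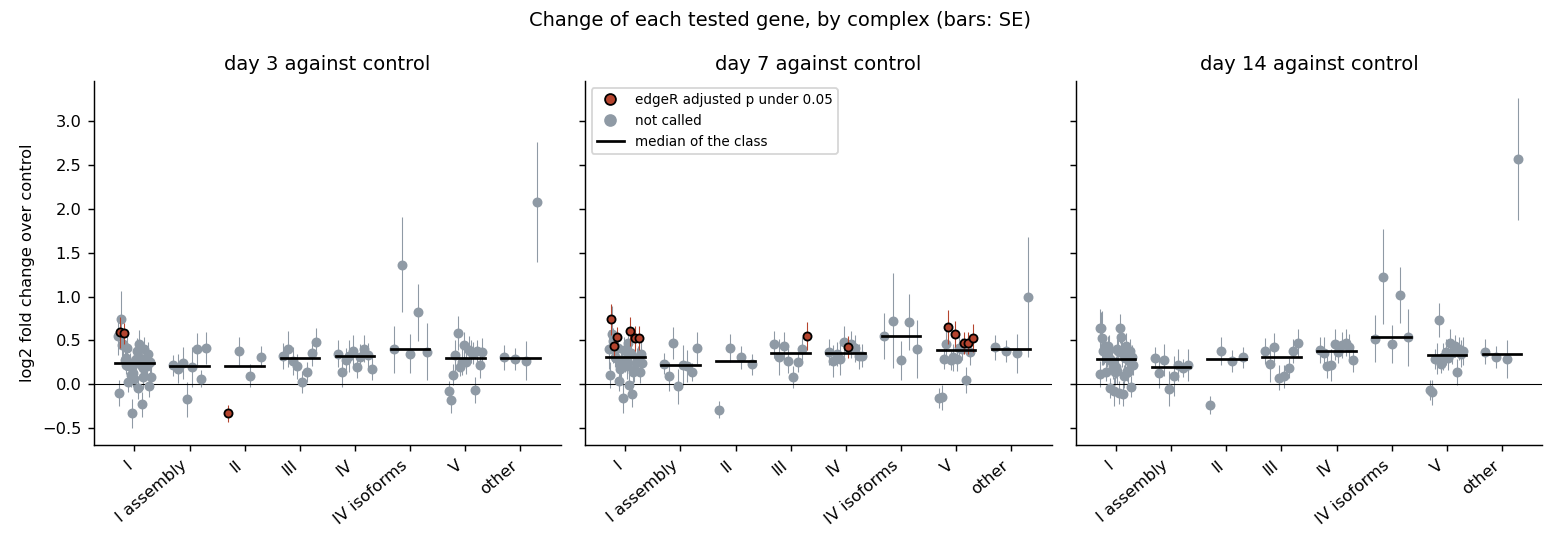
Log2 fold change over control (vertical axis) of each of the 91 tested genes at day 3, day 7 and day 14, by complex, with SE bars, black lines for the median of each class, and red points for genes with an edgeR adjusted p under 0.05. Points lie mostly above 0 in every class; Sdha is the red point below 0 at day 3, and the 13 red points at day 7 lie in complexes I, III, IV and V.

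Complexes I, III, IV and V did not stand far apart in their medians. In complexes II and V, Sdha and the F1 head subunits Atp5a1 and Atp5b had negative values at each time. These 3 genes also have long coding sequences, of 1992, 1659 and 1587 bp. Over days 3, 7 and 14 the median log2 fold change was 0.24, 0.31 and 0.29 in complex I, 0.30, 0.36 and 0.31 in complex III, 0.32, 0.35 and 0.38 in complex IV and 0.29, 0.39 and 0.33 in complex V. Complex IV had all 10 subunits positive at each time and complex III all 8, although of these 18 genes only Uqcrq and Cox6c passed the test, at day 7. Within complex I the 7 core subunits had medians of 0.18, 0.17 and 0.26 and the 29 accessory subunits 0.26, 0.35 and 0.30. Assembly factors, with 0.21, 0.21 and 0.20, had no called gene in any of the 3 comparisons. At an unadjusted p under 0.05, 2, 2 and 1 of the 8 were higher and none lower, beside 19.5%, 15.4% and 12.9% of all tested genes higher, with Ndufaf4 the one that had a negative value at every time.

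Genes with negative values were few and much the same over time: Ndufs1, a core subunit of complex I that carries iron-sulfur clusters, Ndufb2, Ndufb8, Ndufaf4, Sdha, Atp5a1 and Atp5b were negative at day 3, 7 and 14; Ndufb8 was chosen after its values were seen. Of these only Sdha passed the test, at day 3. Ndufs1, Sdha, Atp5a1 and Atp5b have the longest coding sequences of the set, with 2181, 1992, 1659 and 1587 bp. Over all tested genes of 1200 bp or more the medians were -0.085, -0.10 and -0.070 at days 3, 7 and 14. Of the 10 genes of the set in that class, 5, 6 and 5 were positive. Ndufb2, Ndufb8 and Ndufaf4 are shorter, with 315, 558 and 519 bp, and the part of length was not tested. Atp5b was at 940.4, 878, 985 and 898 CPM at day 3, against 1058, 979.8, 1067 and 1101 CPM in control. The groups overlapped in 1 library each, and the log2 fold change was -0.18 ± 0.14 (edgeR adjusted p = 0.35). Ndufs1 was at 82.4, 77.3, 77.1 and 80.4 CPM at day 3, against 96.9, 85.1, 99.0 and 91.7 CPM in control. It did not overlap and did not pass (log2 fold change -0.23 ± 0.14, adjusted p = 0.237). Exons of Ndufb2 overlap those of Braf on the opposite strand, which had 96.7 CPM beside 25.6 CPM for Ndufb2 over the wild-type libraries. Those of Ndufs1 overlap Eef1b2, also on the opposite strand, at 139 CPM beside 86.2 CPM, and the strand setting of the counting is not given in the sources used here.

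Complex II showed both directions inside 1 enzyme. At day 3 Sdha fell, while Sdhb, the iron-sulfur subunit, was at 75.5, 73.0, 82.9 and 90.3 CPM at day 3, against 69.2, 57.7, 59.1 and 61.9 CPM in control. Sdhb was higher in every day 3 library than in any control, without passing the test (log2 fold change 0.38 ± 0.16, edgeR adjusted p = 0.106). The membrane anchor Sdhd was at 63.5, 56.7, 78.2 and 62.5 CPM at day 3, against 55.2, 51.9, 52.4 and 50.2 CPM in control. It did not overlap either (log2 fold change 0.32 ± 0.12, adjusted p = 0.0849). Sdhb and Sdhc are named to complete the enzyme, chosen after their values were seen. The other anchor, Sdhc, had a log2 fold change of 0.10 ± 0.13 with overlap (adjusted p = 0.604). At days 7 and 14 Sdha was at 253, 289.9, 303 and 256 and 246, 299, 309 and 291 CPM, below every control each time, with log2 fold changes of -0.29 ± 0.10 and -0.24 ± 0.10 that did not pass (adjusted p = 0.0687 and 0.168). Whether Sdha changed differently from the other 3 subunits was not tested.

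The median difference went down with coding length, both in these genes and over all tested genes. At day 7 the 23 tested genes with a coding length under 300 bp had a median log2 fold change of 0.41, the 43 with 300 to under 600 bp 0.35, the 15 with 600 to under 1200 bp 0.27 and the 10 with 1200 bp or more 0.11. Over all tested genes of the same classes the medians were 0.39, 0.33, 0.17 and -0.10. At day 3 the medians of the set were 0.37, 0.28, 0.20 and 0.001, beside 0.33, 0.28, 0.16 and -0.085 over all genes, and at day 14 they were 0.44, 0.31, 0.29 and 0.021, beside 0.33, 0.28, 0.16 and -0.070. In the 2 shorter classes the medians of the set at days 3 and 7 thus lay near those of all genes of that length. Positive values were more frequent in the set: 22 of 23 and 40 of 43 at day 3, beside 71.9% and 73.0% of all genes. The part of length in the changes was not tested. By the deposited gene length, which counts untranslated exons, the 11 genes of 4000 bp or more had medians of 0.20, 0.27 and 0.23 at days 3, 7 and 14, beside -0.13, -0.15 and -0.090 over all genes of that class. The 23 genes under 1000 bp had 0.325, 0.403 and 0.379, beside 0.167, 0.297 and 0.228. By this measure the set lay above all genes in these 2 end classes. The 35 genes of 1000 to under 2000 bp had 0.327, 0.369 and 0.366, beside 0.217, 0.286 and 0.248. The 13 genes of 2000 to under 3000 bp had 0.178, 0.241 and 0.298, beside 0.147, 0.182 and 0.156. The 9 genes of 3000 to under 4000 bp had 0.062, 0.14 and 0.181, beside 0.085, 0.094 and 0.084, and so lay below all genes at day 3.

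**Figure D3:**
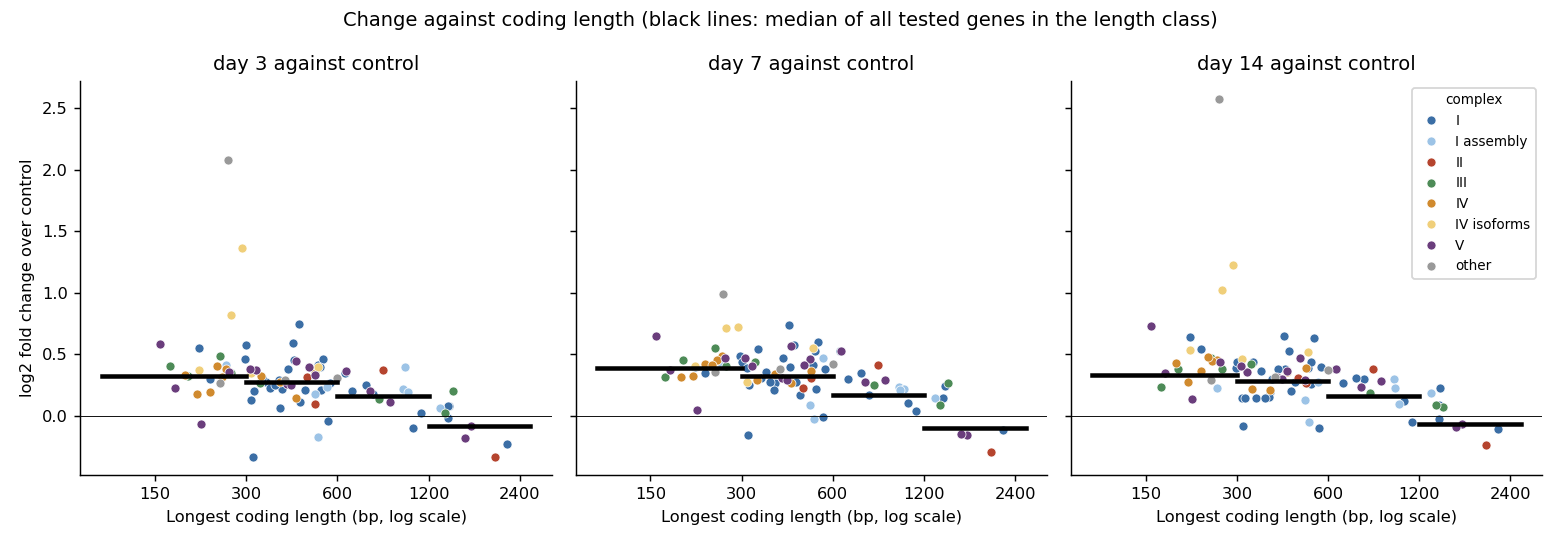
Log2 fold change over control (vertical axis) against the longest annotated coding length (horizontal axis, bp, log scale) of the 91 tested genes at day 3, day 7 and day 14, colored by complex, with black lines for the median of all tested genes in 4 length classes. Short genes lie higher than long ones both in the set and over all genes; at day 7 the medians over all genes go down from 0.39 under 300 bp to -0.10 at 1200 bp or more.

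Isoforms of complex IV that belong to other tissues or conditions were measured beside their general partners. Cox6a2, the heart and skeletal muscle form of Cox6a1, was at 20.1, 6.30, 6.29 and 9.16 CPM in control, 43.2, 17.7, 27.0 and 19.9 at day 3, 25.3, 21.3, 7.82 and 14.9 at day 7 and 52.6, 10.3, 23.8 and 11.4 at day 14. Its libraries ranged widely inside each group, and every laser group overlapped control. The log2 fold changes of 1.36 ± 0.54, 0.72 ± 0.54 and 1.23 ± 0.54 did not pass the test (edgeR adjusted p = 0.0897, 0.358 and 0.183). With 1 library left out they ranged over 1.04 to 1.89, 0.49 to 1.25 and 0.56 to 1.76; the highest of each range came without control replicate 1, and the lowest came without replicate 1 of the laser group, the library with the highest Cox6a2 in its group. The sum of 16 skeletal muscle markers was 796, 292, 305 and 373 CPM in control, 1476, 665, 1062 and 836 at day 3, 1099, 885, 299 and 656 at day 7 and 1657, 452, 974 and 332 at day 14. In each of the 6 groups, the knockouts included, the library with the highest Cox6a2 was the one with the highest muscle sum. For Cox8b, the muscle form of Cox8a, that held in 5 of 6 groups and for Cox7a1, the muscle form of Cox7a2, in 4 of 6. It also held in 4 of 6 for Cox6b2, the testis form of Cox6b1, and the highest Cox8b library was the one with the highest lens sum in 3 of 6. Skeletal muscle is no part of the retina or choroid, and its part in these values was not tested.

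Cox7a1 was at 7.41, 6.16, 5.56 and 5.53 CPM at day 3, against 3.34, 3.74, 2.67 and 4.22 CPM in control. All day 3 libraries were higher than the controls, without passing the test (log2 fold change 0.82 ± 0.32, edgeR adjusted p = 0.0858; 0.71 ± 0.32 and 1.02 ± 0.32 at days 7 and 14, adjusted p = 0.142 and 0.0974). Cox8b was at 31.2, 20.3, 22.8 and 23.7 CPM at day 3, against 23.6, 14.6, 19.6 and 17.9 CPM in control, with overlap (log2 fold change 0.37 ± 0.33, adjusted p = 0.412). Per length Cox8b still reached 52.5 ± 10.4 CPM per kilobase in control, beside 374 ± 10.7 for Cox8a. Cox4i2, the lung form of Cox4i1 that serves in low oxygen, was at 26.4, 21.6, 17.4 and 19.4 CPM at day 7, against 14.6, 13.4, 12.8 and 17.2 CPM in control. Every day 7 library was above the controls (log2 fold change 0.55 ± 0.27, adjusted p = 0.17). Cox6b2, the testis form of Cox6b1, ranged over 10.6 to 26.1 CPM over the wild-type libraries, with its highest value in day 14 replicate 1. The general partners Cox4i1, Cox6a1, Cox6b1, Cox7a2, Cox7b and Cox8a had log2 fold changes of 0.35, 0.32, 0.38, 0.31, 0.41 and 0.18 at day 3 and of 0.36, 0.29, 0.48, 0.45, 0.41 and 0.32 at day 7, none past the threshold.

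**Figure D4:**
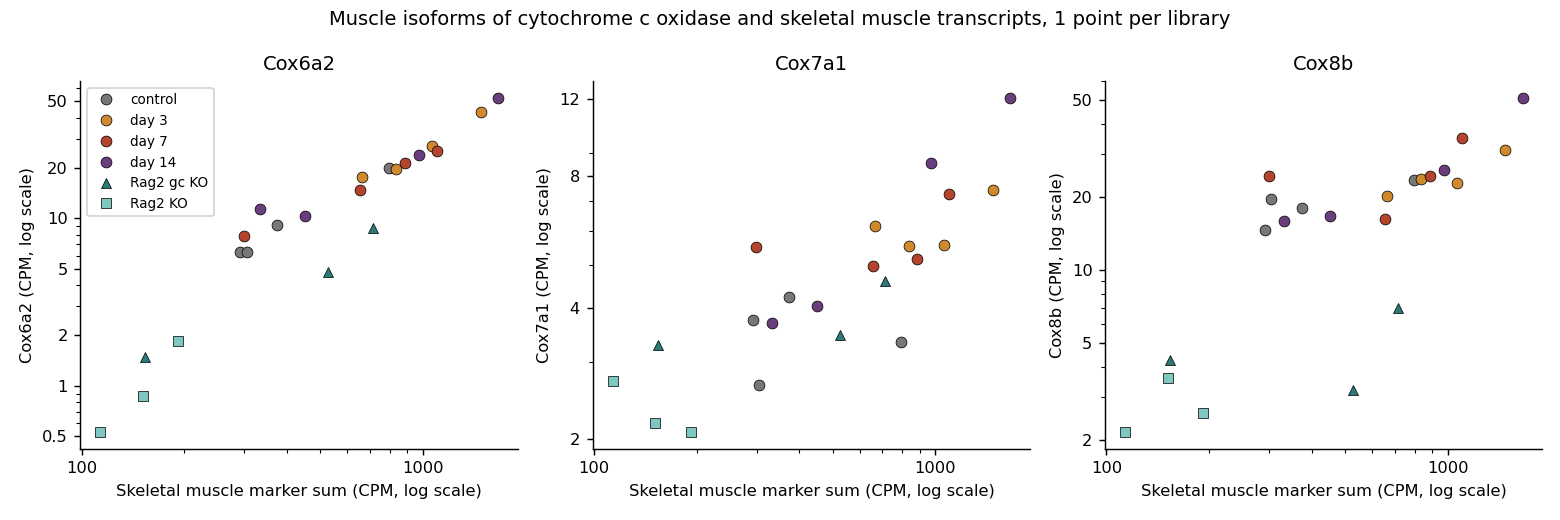
Level in CPM (vertical axes, log scale) of Cox6a2, Cox7a1 and Cox8b against the summed CPM of 16 skeletal muscle markers (horizontal axes, log scale), 1 point per library, with circles for the wild-type groups, triangles for Rag2 gc KO and squares for Rag2 KO. Cox6a2 lies highest, at 52.6 CPM, in day 14 replicate 1, where the muscle sum is also highest, at 1657 CPM.

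Ndufa4l2, a low-oxygen induced relative of Ndufa4, was at 5.94, 7.61, 7.75 and 8.44 CPM at day 3, against 0.866, 3.15, 1.52 and 1.495 CPM in control. The groups did not overlap, and the log2 fold change of 2.08 ± 0.69 did not pass (edgeR adjusted p = 0.0537). At day 7 it was at 6.51, 1.68, 2.60 and 3.19 CPM, within and above the control range (0.99 ± 0.69, adjusted p = 0.326), and at day 14 at 30.6, 3.69, 4.59 and 3.24 CPM (2.58 ± 0.70, adjusted p = 0.0778). The high value of day 14 replicate 1, the library with the most lens transcripts, sets much of the day 14 mean. Markers of vascular smooth muscle and pericytes were also highest there, at a sum of 491 CPM. They summed to 125 to 199 CPM in control, 260 to 317 at day 3, 136 to 322 at day 7 and 125 to 491 at day 14. The part of these contents in Ndufa4l2 was not tested. Exons of Ndufa4l2 overlap those of Shmt2 on the opposite strand, which averaged 65.9 CPM beside 5.81 CPM for Ndufa4l2, so reads of the 2 genes may not be told apart. Ndufa4, now counted to complex IV, was at 237, 201, 331 and 221 CPM at day 3, against 219.8, 199, 209 and 194 CPM in control (log2 fold change 0.27 ± 0.22, adjusted p = 0.38). The supercomplex factor Cox7a2l had log2 fold changes of 0.29 ± 0.12, 0.38 ± 0.12 and 0.31 ± 0.12 at days 3, 7 and 14, none past the threshold (adjusted p = 0.11, 0.0592 and 0.15).

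Other genes of the pathway were read from lists. Of the 13 subunits encoded by mitochondrial DNA, 1 rose at day 3, 5 at day 7 and none at day 14, where edgeR called 6.97%, 3.62% and 0.0322% of all tested genes higher, and none fell. The day 3 count is near the background share, and the day 7 count is above it. Their summed level was 25894 to 30988 CPM in control, 31421 to 38889 at day 3, 35454 to 44586 at day 7 and 38219 to 43947 at day 14, so every laser library was above every control. The median log2 fold change was 0.32, 0.48 and 0.49. The complex IV subunit mt-Co3 rose at day 3 by 0.76 ± 0.21 and at day 7 by 0.92 ± 0.21 on the log2 scale (± SE; edgeR adjusted p = 0.0318 and 0.0207), and mt-Atp6, the proton channel of ATP synthase, at day 7 by 1.12 ± 0.28 (adjusted p = 0.0273). The others called at day 7 were mt-Co2, mt-Nd4 and mt-Nd6.

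Ppargc1a and Ppargc1b, 2 transcriptional coactivators of mitochondrial genes, went the other way at day 3. They fell at day 3, with log2 fold changes of -0.90 ± 0.25 and -0.88 ± 0.15 (± SE, edgeR adjusted p = 0.0312 and 0.00782), as 2 of 13 regulators, where 7.77% of all tested genes were called lower. The median log2 fold change of the 13 regulators at day 3 was 0.061. Their summed level was 450.8 to 475.6 CPM in control and 418.3 to 456.5 at day 3. It was 432.3 to 441.7 CPM at day 7 and 391.8 to 430.4 at day 14, below every control at both times. These sums were not tested. At day 7 Ppargc1a and Ppargc1b were at -0.75 ± 0.24 and -0.42 ± 0.15 and did not pass (adjusted p = 0.06 and 0.075). Tfam, which packs and transcribes mitochondrial DNA, had 0.19 ± 0.11 at day 3 (adjusted p = 0.191). Of 32 tested assembly factors of complexes II to V, Lrpprc, Coa7 and Ttc19 fell at day 3, with log2 fold changes of -0.61 ± 0.18, -0.60 ± 0.15 and -0.38 ± 0.12 (adjusted p = 0.037, 0.0271 and 0.0498); these 3 of 32 are near the 7.77% of all tested genes. Sdhaf2, which attaches the flavin to Sdha, rose at day 7 by 0.35 ± 0.094 (adjusted p = 0.0333), the 1 of 32 called, where 3.62% of all tested genes were called higher. Of the 13 citric acid cycle enzymes none was called in any of the 3 comparisons, with medians of 0.047, -0.003 and -0.006. The electron carrier gene Cycs and the complex III subunit Cyc1 had 0.12 ± 0.14 and 0.18 ± 0.12 at day 3, not called. Among 7 further complex I assembly genes Timmdc1 rose at day 3 (0.36 ± 0.11, adjusted p = 0.0432), and among 8 genes of the outer membrane and import Vdac3 rose at day 3 (0.45 ± 0.10, adjusted p = 0.0195). These are single genes of short lists, and 6.97% of all tested genes were called higher at day 3.

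Tissue content moved along with the laser groups. Rod markers had 0 of 13 genes called at day 3, with 13 of 13 values negative and a median log2 fold change of -0.55, while 13 of 14 macrophage and microglia markers rose with a median of 2.02 (edgeR adjusted p under 0.05, which 6.97% of all tested genes passed higher and 7.77% lower). At day 7, 9 of the 14 macrophage and microglia markers rose and 0 of 13 rod markers passed, with a median of -0.35 for rods (3.62% of all tested genes higher and 6.9% lower). Of 10 markers of the retinal pigment epithelium, Lrat, Rgr and Rpe65 fell at day 3, and of 7 Müller glia markers Car14 and Glul fell, beside the 7.77% of all tested genes. Macrophage and microglia markers summed to 153 to 197 CPM in control, 357 to 852 at day 3, 295 to 643 at day 7 and 253 to 919 at day 14. Skeletal muscle markers had 3 of 15 tested genes called higher at day 3, beside 6.97% of all tested genes. At day 3 the library with the fewest rod transcripts, replicate 3 with 30306 CPM, had the highest sum over the 94 genes, 10041 CPM. At day 7 the library with the most, replicate 2 with 66760 CPM, had the highest sum, 11160 CPM. The part of these contents in the differences of the set was not tested.

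Between the knockout groups, 3 days after the laser, edgeR called no gene of the set, where it called 0.211% of 18923 tested genes higher and 0.254% lower. At an unadjusted p under 0.05, 14 of 91 were higher and 1 lower (7.97% and 6.71% of all tested genes), 67 were positive (50.8%), and the median log2 fold change was 0.086, beside 0.004 over all tested genes. The groups did not overlap for 15 genes higher and 1 lower (11.5% and 10.6%). The smallest p belonged to Sdhc, a membrane anchor of complex II, at 117, 104 and 112 CPM in Rag2 gc KO, against 85.7, 84.0 and 90.0 CPM in Rag2 KO. All Rag2 gc KO libraries were higher, and the log2 fold change was 0.36 ± 0.068 (± SE; edgeR adjusted p = 0.073). DESeq2 called Sdhc and Cox6a2 higher and none lower, and limma voom called none; without the filter on low counts edgeR called Sdhc.

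Other genes in the knockout comparison were chosen after their values were seen. Ndufs4, an accessory subunit, was at 56.2, 62.4 and 51.2 CPM in Rag2 gc KO, against 50.6, 43.1 and 45.0 CPM in Rag2 KO (log2 fold change 0.29 ± 0.094, edgeR adjusted p = 0.223). Uqcrc1, a core protein of complex III, was at 260.2, 254 and 269 CPM in Rag2 gc KO, against 229, 220.5 and 237 CPM in Rag2 KO (0.19 ± 0.062, adjusted p = 0.23). In both genes the groups stood apart without passing the test. Ndufa12, which has a near-identical processed copy, had the widest difference outside the isoforms, at 14.7, 25.04 and 17.6 CPM in Rag2 gc KO, against 45.4, 24.3 and 26.4 CPM in Rag2 KO, with overlap (-0.74 ± 0.32, adjusted p = 0.36). Sdha, the gene that fell at day 3 in wild-type eyes, was at 333, 332 and 364 CPM in Rag2 gc KO, against 351, 322 and 331 CPM in Rag2 KO, with overlap (log2 fold change 0.036 ± 0.070, adjusted p = 0.851).

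By complex the summed level was 2708 ± 175 CPM in Rag2 gc KO and 2578 ± 158 CPM in Rag2 KO for complex I (SD, n = 3 each), and the ratios of the means were 1.05, 1.05, 1.09, 1.03 and 1.06 for complexes I to V. Complex III had 2 of 3 Rag2 gc KO libraries above every Rag2 KO library, and the others 1 of 3. Among isoforms, Cox6a2 was at 4.77, 8.83 and 1.49 CPM in Rag2 gc KO, against 1.85, 0.870 and 0.530 CPM in Rag2 KO (log2 fold change 2.21 ± 0.75, edgeR adjusted p = 0.277). Skeletal muscle markers summed to 527, 714 and 154 CPM in Rag2 gc KO and 192, 151 and 113 CPM in Rag2 KO, with the libraries in the same order as for Cox6a2 inside each group. Macrophage and microglia markers summed to 879, 419.9 and 584 CPM in Rag2 gc KO and 294, 383 and 332 CPM in Rag2 KO, without overlap and with 0 of 14 called. The 13 mitochondrially encoded subunits summed to 25307, 28478 and 26385 CPM in Rag2 gc KO and 16315, 27699.8 and 24546 CPM in Rag2 KO, with overlap and 0 called. The part of these contents in the knockout comparison was not tested. Cox6b2 was the 1 gene without overlap that was lower, at 7.08, 7.71 and 8.89 CPM in Rag2 gc KO, against 10.9, 10.6 and 9.23 CPM in Rag2 KO (-0.37 ± 0.15, adjusted p = 0.304).

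Several of these small genes have processed copies elsewhere in the genome, and reads of the gene can match the copy as well. Of the 94 genes, 16 had a copy with at least 97% identity over at least 200 bases of transcript. Of these Ndufs5 and Ndufa12 are described, chosen after their values were seen. The clearest case was Ndufs5, an accessory subunit of complex I on chromosome 4 (chr4:123712710-123718202, minus strand), and BC002163, a processed pseudogene on chromosome 16 (chr16:42955631-42955949, plus strand). Over the 319 bases the copy shares with the Ndufs5 transcript, 317 are identical, and the first 150 are shown; the substitutions from Ndufs5 to BC002163 are T81C and A105G, counted from 1 at the 5′ end of the stretches below, where they are in capitals. Both stretches were read from GENCODE M21 transcripts.
Ndufs5: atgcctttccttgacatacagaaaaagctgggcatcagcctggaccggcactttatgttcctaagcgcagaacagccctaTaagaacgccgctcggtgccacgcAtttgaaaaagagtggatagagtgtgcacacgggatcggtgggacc
BC002163: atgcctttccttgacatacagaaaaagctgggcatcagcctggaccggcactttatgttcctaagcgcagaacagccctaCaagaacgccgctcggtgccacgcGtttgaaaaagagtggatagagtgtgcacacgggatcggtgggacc

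In the 16 wild-type libraries Ndufs5 was at 53.0 to 77.0 CPM and BC002163 at 0.826 to 3.23 CPM. In the 6 knockout libraries, counted over the same list of gene IDs, Ndufs5 was at 10.6 to 13.5 CPM and BC002163 at 61.0 to 73.8 CPM. The pair together was at 53.8 to 79.6 CPM in the wild-type libraries and at 71.6 to 87.3 CPM in the knockout libraries. The share counted to Ndufs5 was 94.9% to 98.5% in the wild-type libraries and 12.7% to 15.5% in the knockout libraries, with no overlap. The tables were scaled separately and differ in genotype and in sequencing depth, so no test was made between them. Within the knockout set the share was alike in both genotypes.

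Ndufa12, an accessory subunit of complex I on chromosome 10, and its copy Gm15920 on chromosome 5 (chr5:130188395-130188796) share 400 of 402 bases. Ndufa12 was at 21.2, 23.1, 50.5 and 20.2 CPM at day 3, against 17.1, 17.7, 15.9 and 17.7 CPM in control. All day 3 libraries were above control, replicate 3 far above the rest (log2 fold change 0.75 ± 0.31, edgeR adjusted p = 0.102). The copy was at 38.6, 30.9, 23.1 and 37.9 CPM at day 3, against 38.1, 28.3, 32.9 and 31.6 CPM in control, lowest at day 3 in replicate 3. Atp5l, called at day 7, had 66.4% to 76.6% of the counts of the gene and its 4 copies over the wild-type libraries. With copies summed into their genes, an alternative chosen after seeing the data, edgeR called 4 higher and 1 lower at day 3, 13 higher at day 7 and none at day 14. Exons of 33 of the 94 genes overlap those of another gene, and in 18 of them the mean CPM of that other gene over the wild-type libraries was over 10% of the gene's own. How many reads the 2 genes share was not measured. Vmac was at 46.7% of the CPM of Ndufa11, Tfpt at 50.2% of that of Ndufa3 and Vps13b at 42.7% of that of Cox6c, each on the opposite strand.

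**Figure D5:**
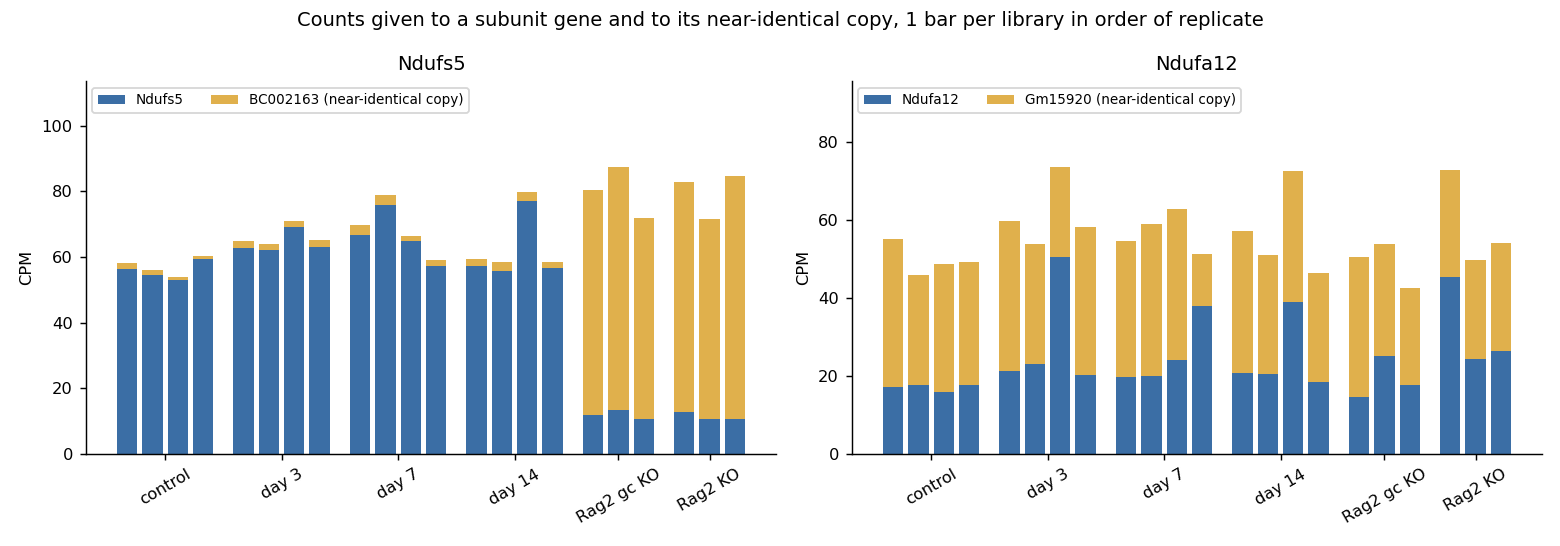
CPM (vertical axes) counted to Ndufs5 and Ndufa12 (blue) and to their near-identical copies BC002163 and Gm15920 (yellow, stacked), 1 bar per library in order of replicate within control, day 3, day 7, day 14, Rag2 gc KO and Rag2 KO. Ndufs5 holds most of the bar in the 16 wild-type libraries and BC002163 most of it in the 6 knockout libraries, and the Ndufa12 part is largest among wild-type libraries, at 50.5 CPM, in day 3 replicate 3.

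The authors' deposited table of comparisons with control gave more calls than edgeR over the whole set. At day 3 the authors' deposited table gives an adjusted p for 91 of the genes, and 52 were higher and 3 lower at an adjusted p under 0.05, beside 14.0% and 12.4% of all its genes. At day 7 the authors' deposited table gave 45 higher and 1 lower of 92 (9.17% and 9.62%), and at day 14 it gave 5 higher and 0 lower of 92 (1.71% and 1.94%). The 5 of the authors' deposited table at day 14 were Ndufa11, Ndufb9, Ndufc1, Atp5j2 and Ndufa7, and its lower genes were Sdha at days 3 and 7 and Ndufb2 and Ndufs1 at day 3.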

How the data were processed

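RNA-seq of 22 mouse retina-choroid libraries was used: 16 wild-type and 6 knockout. Gene counts were made by the authors with featureCounts 1.5.0-p3 on mm10, per the submitters' processing notes, and deposited as whole-number counts per gene in 2 tables. Which aligner, which annotation release and which strand option were used is not given in the sources used here. The deposited FPKM columns equal the count over gene length times a constant per library and were used only for that check. The authors' deposited comparison tables give log2 fold changes and adjusted p-values, which were copied, not recomputed, and a mean signal per group (normalized counts, made by the authors), which was not used.

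Each table was fitted alone in edgeR 4.0.16 under R 4.3.3: filterByExpr (minimum count 10, minimum total 15; 18657 and 18923 genes kept), TMM scaling, robust quasi-likelihood fits over all groups of the table, and Benjamini-Hochberg adjustment over all tested genes, called at an adjusted p under 0.05. CPM values are TMM-scaled, and levels per length divide them by the deposited gene length in kilobases. The standard error is the log2 fold change over the square root of F. Alternatives were DESeq2 1.42.0, limma voom 3.58.1, other scalings and filters, covariates, a replicate block and leaving out libraries. The procedure was tested on simulated data with known changes. Depth was 15033983 to 30315086 counts per library; standard errors and SDs cover the spread between libraries.

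The members and lists were chosen with earlier results of these data known. Named in the text are all called members of a comparison if at most 12, otherwise the 3 with the smallest p per complex and direction, the 2 with the highest level per length in each complex, the isoforms with their partners, and members under the filter; others are stated as chosen after their values were seen. Longer forms of the NRF1 and YY1 letters were searched first, and were in fewer promoter windows of both the set and all genes; the letters given were chosen after that. Values of 1 gene are not reported here.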

Additional observations from a re-analysis of the deposited data

Results flagged for a closer look

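Of 92 groups of 4 libraries examined (complex sums and named genes), 7 had 1 library far from the other 3, a distance that chance gives in about 1 in 20 groups. Day 14 replicate 3 had a complex II sum of 586 CPM, beside 491.0 to 493 CPM in the other day 14 libraries. The same library had Ndufa12 at 38.9 CPM, beside 18.4 to 20.9 CPM, and Ndufs5 at 77.0 CPM, beside 55.6 to 57.3 CPM. Day 3 replicate 3 had Ndufa12 at 50.5 CPM, beside 20.2 to 23.1 CPM, and Ndufs5 at 69.1 CPM, beside 62.1 to 63.0 CPM. Both genes have a near-identical processed copy. Control replicate 4, whose treatment tag goes against its title, had Cox6b2 at 13.3 CPM, beside 11.4 to 11.6 CPM in the other controls. Day 14 replicate 1 had Ndufa4l2 at 30.6 CPM, beside 3.24 to 4.59 CPM, and that library also held the most lens and skeletal muscle transcripts. Its sum of vascular smooth muscle and pericyte markers was 491 CPM, beside 125 to 132 CPM in the other day 14 libraries.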

How the results depend on the processing

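The medians over the 91 tested genes stayed positive in every setting run for the 3 comparisons with control and for the knockout comparison, with ranges of 0.24 to 0.31, 0.28 to 0.41, 0.20 to 0.38 and 0.030 to 0.13 on the log2 scale when 1 library was left out, while the counts of called genes depended on the fit. At day 3, beside 2 higher and 1 lower, there were 14 higher by DESeq2, 6 with library totals alone, 1 without the filter, 1 with lens and cornea covariates, 47 with only the compared groups, 9 with 3 libraries left out at once (replicate 3 of day 3, replicate 2 of day 7, replicate 1 of day 14), and 4 with copies summed, the last an alternative chosen after seeing the data. Lower at day 3 were 0 with totals alone, without the filter and with covariates, and 3 with only the compared groups. Counts over all 18657 tested genes moved as well. Higher at day 3 were 1300 in the main fit, 2556 by DESeq2, 1405 with totals alone and 216 with covariates. With only the compared groups it was 3489, without the 3 libraries 2033, and without the filter 734 of 35043. Lower were 1449 in the main fit, 1004 with totals alone, 449 with covariates, 3763 with only the compared groups and 672 without the filter. Leaving out 1 library gave 1 to 2 higher and 0 lower, beside 164 to 1259 higher and 134 to 1154 lower over all tested genes. At day 7, beside 13 higher and 0 lower, there were 24 higher and 1 lower by DESeq2, 7 higher with covariates, 4 without the filter, 37 with only the compared groups, and 1 lower without the same 3 libraries; leaving out 1 library gave 0 to 34 higher. Over all tested genes, those higher at day 7 were 675 in the main fit, 1690 by DESeq2 and 486 with covariates. With only the compared groups it was 1982, without the filter 256 of 35043, and with 1 library left out 34 to 1194. At day 14 DESeq2 called 11 higher, and leaving out 1 library gave 0 to 2 higher, beside 827 and 1 to 130 over all tested genes. For day 14 against day 3 leaving out 1 library gave 0 to 1 higher, beside 0 to 602 over all tested genes. Between the knockouts DESeq2 called 2 higher and the fit without the filter 1.

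Some directions turned. With lens and cornea covariates the log2 fold changes at day 7 were -0.18 for Cox6a2 and -0.088 for Ndufa4l2, and the medians were -0.046 for day 7 against day 3 and -0.019 for day 14 against day 3, which ranged from -0.082 (without replicate 3 of day 14) to 0.115 with 1 library left out. The cause was not tested. Replicate numbers gave no sign of pairing the libraries, although this check cannot exclude a pairing. Deviations of same-numbered libraries correlated from -0.51 to 0.48 in the wild-type table, where 4 of 16 libraries were closest to their own number. In the knockout table they correlated from -0.058 to 0.078, and 2 of 6 libraries were closest to their own number. A replicate block gave 6 higher and 0 lower at day 3, 10 higher at day 7 and none at day 14. Over all tested genes it gave 1591 higher and 1306 lower at day 3, 669 higher at day 7 and 2 higher at day 14. Depth was alike within each table, and Ndufa4l2, at a few CPM in most libraries, and Cox6a2 carried the widest errors of the genes named.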
